A study of Mus musculus with 10 samples.

Results

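Chemokines and inflammatory cytokines are described here through 9 genes, out of 12393 named on the array: the CXC chemokines Ppbp, Cxcl1, Cxcl5 and Cxcl12, the CC chemokines Ccl2 and Ccl7, and the cytokines Csf1, Il6 and Lif. They were found by gene symbol and are read by 14 of 22626 probe sets, of which 12 were bright enough to be tested. The set was chosen because Ppbp and Cxcl5 were lower and Cxcl12 higher with wild-type G9a, so values of WT against delta are given as a description, with no test. The cells were mouse embryonic fibroblasts, which are cultured connective tissue cells, that had lost the histone H3 methyltransferase G9a (Ehmt2). The delta cells carried an empty vector in that G9a-deleted background. The WT cells carried wild type G9a with a FLAG tag, and the K165A and H1093K cells carried FLAG-G9a with the substitution of that name, H1093K being the catalytic mutant. A further pair of arrays is titled only as deleted, with no vector named. Each of the 5 groups had 2 Affymetrix arrays, 10 in all. Whether a pair came from separate cultures is not stated. A p-value here sets a difference between groups against the spread of arrays within groups, shared over the 5 groups. That spread can be technical alone. The age of the embryos, the vector and the number of clones are not given in the sources used here.

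Chemokines are small secreted proteins that guide white blood cells through receptors of the G protein-coupled kind. Ppbp, Cxcl1 and Cxcl5 belong to the CXC ligands that attract neutrophils through Cxcr2, whereas Cxcl12 binds Cxcr4 and Ackr3 and is known for holding blood progenitors in the marrow. Ccl2 and Ccl7 attract monocytes through Ccr2, Csf1 is the growth factor of macrophages, and Il6 and Lif signal through receptors that share Il6st. Fibroblasts are a known source of several of these proteins.

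Array medians of the signal ranged from 180.9 to 199.3. All 10 fibroblast markers passed the filter on low signals, and their summed signal ranged from 50390 to 71240. The brighter Ehmt2 probe set was highest in the pair labelled deleted, at 1714 ± 51.0 (SD, n = 2 in each group). It was 714 ± 14.5 for K165A, 648 ± 39.4 for WT, 478 ± 23.8 for H1093K and 444 ± 41.0 for delta, so the deleted pair goes against its label. The H1093K arrays (461 and 494) overlapped those of delta (473 and 415), so this probe set did not set the H1093K cells apart from cells with the empty vector, which bears on each comparison with H1093K. On the dimmer Ehmt2 probe set they did not overlap, at 116.5 and 55.6 in H1093K against 7.13 and 36.5 in delta. Where that probe set lies relative to the deleted stretch was not analysed here. Of 12 macrophage and leukocyte markers 4 passed the filter, with a summed signal of 681 to 926 over all arrays, and Ptprc averaged 21.7. Of 7 megakaryocyte and platelet markers on the array 3 passed, with sums of 542 to 743, and Gp9 averaged 7.64. Of 6 endothelial markers 1 passed, with sums of 212 to 318. Of 8 epithelial markers 5 passed, and their sum moved with the groups. It was 4283 to 4295 in deleted, 3810 to 4139 in delta and 2679 to 2927 in H1093K, against 1132 to 1270 in WT and 1056 to 1189 in K165A, while Epcam averaged 13.2. The part of these epithelial genes in the results below was not tested. In such bulk samples, fewer cells of a type and less RNA per cell cannot be told apart.

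Among the members, 3 lie in 1 cluster of CXC chemokine genes on chromosome 5, in the order Cxcl5, Ppbp, Pf4, Cxcl3, Cxcl15, Cxcl1, Cxcl2 by the RefSeq gene table of GRCm38.p6. The promoters of Ppbp and Cxcl1 are shown because these neighbours differed between groups to very unequal degrees, that of Cxcl12 because it ran the opposite way to Ppbp, and that of Csf1 as a cytokine outside the cluster. Each window holds 250 bases before and 50 after the start of the gene, read 5′ to 3′ on the gene's strand. Capitals mark matches to TATAAA, to the NF-kB motif (GGGA, any 2 bases, TTCC), to the AP-1 motif TGANTCA or to the C/EBP motif TTGCNNAA, searched on both strands. RefSeq, on GRCm38.p6, places them at chr5:90768268-90768567 (Ppbp, plus strand), chr5:90890995-90891294 (Cxcl1, plus strand), chr6:117168285-117168584 (Cxcl12, plus strand) and chr3:107760420-107760719 (Csf1, minus strand).
Ppbp: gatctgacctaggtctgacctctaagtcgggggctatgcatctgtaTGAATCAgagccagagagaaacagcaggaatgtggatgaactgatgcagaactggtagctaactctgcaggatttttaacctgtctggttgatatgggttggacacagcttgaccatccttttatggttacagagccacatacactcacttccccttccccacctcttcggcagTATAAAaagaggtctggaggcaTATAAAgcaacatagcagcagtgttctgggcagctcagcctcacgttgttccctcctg
Cxcl1: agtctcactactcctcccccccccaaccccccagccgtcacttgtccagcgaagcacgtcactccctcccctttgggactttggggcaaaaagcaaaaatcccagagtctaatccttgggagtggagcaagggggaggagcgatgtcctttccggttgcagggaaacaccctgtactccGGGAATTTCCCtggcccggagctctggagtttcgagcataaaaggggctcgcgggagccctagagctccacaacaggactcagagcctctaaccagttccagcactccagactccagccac
Cxcl12: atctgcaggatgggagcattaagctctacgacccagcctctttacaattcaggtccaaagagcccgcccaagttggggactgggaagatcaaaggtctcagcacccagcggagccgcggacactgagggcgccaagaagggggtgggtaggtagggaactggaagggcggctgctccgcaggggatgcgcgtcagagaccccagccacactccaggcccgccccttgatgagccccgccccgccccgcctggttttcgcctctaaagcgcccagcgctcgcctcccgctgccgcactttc
Csf1: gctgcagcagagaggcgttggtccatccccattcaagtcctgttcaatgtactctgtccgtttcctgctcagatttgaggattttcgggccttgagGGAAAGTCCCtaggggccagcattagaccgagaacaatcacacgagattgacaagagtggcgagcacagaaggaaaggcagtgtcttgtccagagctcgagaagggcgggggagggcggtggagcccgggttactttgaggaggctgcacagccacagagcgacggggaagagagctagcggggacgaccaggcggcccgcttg

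The Ppbp window held 2 copies of TATAAA, which begin 30 and 8 bases before the start, and 1 AP-1 match, whose letters read the same on both strands. The Cxcl1 window held the NF-kB letters on both strands, 1 base apart, from 71 bases before the start. The Csf1 window held 1 NF-kB match on the other strand, and the Cxcl12 window held none of the 4 motifs. Of the 6 members with a promoter in the table, 3 held the NF-kB letters (Cxcl1, Csf1 and Il6). The AP-1 letters were held by Ppbp, Il6 and Lif, TATAAA by Ppbp alone and the C/EBP letters by Il6 alone. Over all 32851 promoters of the same length, 1.47% held the NF-kB letters, 13.6% held TATAAA, 7.81% the AP-1 letters and 10.8% the C/EBP letters. Such a match is a description of the sequence, not a bound site.

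Ppbp, the precursor of a neutrophil-attracting chemokine best known from platelets, was high in delta and H1093K and low in the other 3 groups. The signal was 3119.6 and 3499 in delta, 326 and 282 in WT, 252 and 257 in K165A, 2656 and 2473.5 in H1093K, and 278 and 278 in deleted. No pair of groups overlapped. On the log2(signal + 16) scale used for all folds here, delta was 10.4-fold above WT and 12.3-fold above K165A, and H1093K covered 10.8% of the log2 distance from delta to WT. Outside the WT and delta arrays whose difference chose the genes, Ppbp was 9.53-fold lower in K165A than in H1093K (log2 difference -3.25, 95% interval -3.46 to -3.04, limma adjusted p = 2.63e-07). The spread behind such p-values was estimated over all 10 arrays, and earlier results of all of them were known when the set was chosen. Ppbp was also lower in the arrays labelled deleted than in H1093K, by 8.78-fold (adjusted p = 3.13e-08), and did not pass between deleted and K165A (log2 difference 0.12, -0.09 to 0.33, adjusted p = 0.381). Of the platelet markers beside it, Itga2b averaged 214 in delta and 237 in WT, and Pf4, the neighbouring gene, averaged 69.3 and 47.6.

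Cxcl5, another ligand of Cxcr2, was low in WT and K165A, as Ppbp was, but high where the label reads deleted. Its signal was 630 and 483 in delta, 213 and 223 in WT, 239 and 193 in K165A, 982 and 755 in H1093K, and 853 and 771 in deleted. Both H1093K arrays lay above both delta arrays, and the H1093K and deleted arrays overlapped. K165A was 3.80-fold below H1093K (log2 difference -1.93, -2.29 to -1.56, limma adjusted p = 6.99e-05). Deleted was 3.58-fold above K165A (adjusted p = 2.31e-05), and against H1093K the difference of -0.09 (-0.45 to 0.28) did not pass (adjusted p = 0.726).

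Cxcl1, a neutrophil attractant encoded further along the cluster, differed far less. It read 4103 and 4011 in delta, 2853 and 3124 in WT, 2593 and 2592 in K165A, 3342 and 2782 in H1093K, and 2049 and 1991 in deleted. Both delta arrays were the highest of the 10, and the WT and H1093K arrays overlapped. Against delta, K165A was 1.56-fold lower (log2 difference -0.64, -0.85 to -0.43, limma adjusted p = 0.00183). In K165A against H1093K the difference of -0.23 (-0.44 to -0.02) did not pass (adjusted p = 0.197). H1093K lay 0.41 below delta (-0.62 to -0.20), with an adjusted p of 0.0880 and of 0.0307 with the replicate number as a block. The arrays labelled deleted were 1.51-fold below H1093K (adjusted p = 9.12e-04) and 1.28-fold below K165A (0.0156). The last call was lost without either K165A or either deleted array (adjusted p = 0.0580 to 0.0860).

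**Figure D1:**
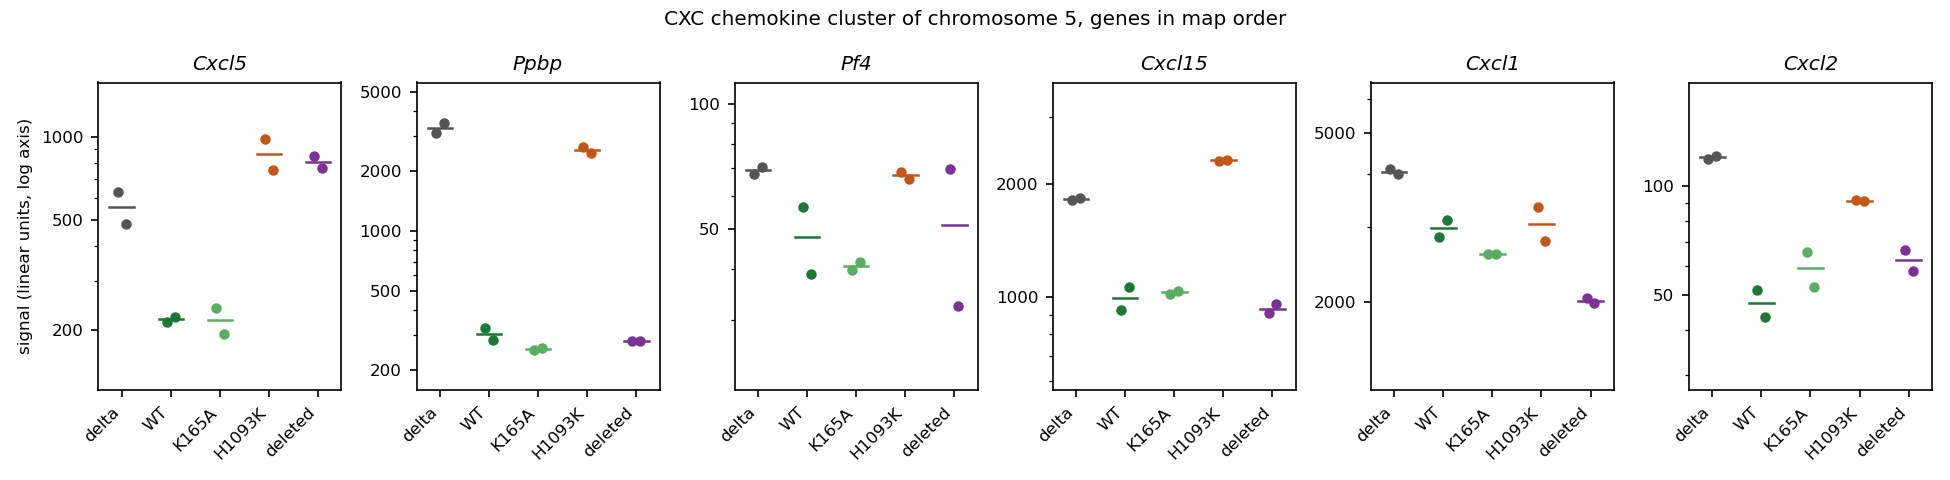
Signal on each array (points, log axis, linear signal units) and group mean (lines) for the measured genes of the chromosome 5 chemokine cluster, in map order, in the 5 groups of 2 arrays. Ppbp spans 252 to 3499 and Cxcl15 lies at 2295 to 2317 in H1093K, whereas Pf4 and Cxcl2 are dim throughout.

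Among the other genes of the cluster, Cxcl15, a chemokine known from mouse lung, was lower in WT and K165A than in H1093K. It read 1815 and 1828 in delta, 925 and 1062 in WT, 1019 and 1041 in K165A, 2295 and 2317 in H1093K, and 908 and 960.0 in deleted. H1093K was the highest group and its arrays did not overlap those of any other. K165A was 2.22-fold below H1093K (log2 difference -1.15, -1.33 to -0.97, limma adjusted p = 2.34e-05) and did not pass against WT (0.05, -0.12 to 0.23). H1093K was 2.31-fold above WT (adjusted p = 2.44e-05). Pf4 and Cxcl2 were under the filter, at a mean of 55.2 and 76.2 over the 10 arrays, and Cxcl2 read 119 and 121 in delta against 51.7 and 43.5 in WT. Cxcl3 had no probe set of its own.

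Cxcl12, the ligand of Cxcr4 and Ackr3, ran the opposite way to Ppbp in the 4 groups with a named vector and was highest in the arrays labelled deleted. By its brighter probe set it read 1348 and 1296 in delta, 2563 and 2556 in WT, 2649.8 and 2476 in K165A, 1518 and 1504 in H1093K, and 6249 and 5894 in deleted. The WT and K165A arrays overlapped, and each other neighbouring pair of groups was apart. K165A was 1.69-fold above H1093K (log2 difference 0.76, 0.60 to 0.91, limma adjusted p = 1.34e-04), and the other Cxcl12 probe set gave 1.61-fold (adjusted p = 2.41e-04). Deleted was 2.36-fold above K165A (adjusted p = 1.17e-06) and 3.98-fold above H1093K (adjusted p = 7.00e-08). H1093K covered 20.2% and 24.5% of the distance from delta to WT by the brighter and dimmer probe set.

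Of 21 chemokine receptors on the array, only Ackr3, which binds and removes Cxcl12, passed the filter. It read 618 and 458 in delta, 1360 and 1758 in WT, 1341 and 1391 in K165A, 648 and 627 in H1093K, and 555 and 643 in deleted. Ackr3 was thus high with its ligand in WT and K165A but not in the arrays labelled deleted. K165A was 2.11-fold above H1093K (log2 difference 1.08, 0.74 to 1.42, limma adjusted p = 0.00164), and deleted was 2.25-fold below K165A (adjusted p = 2.78e-04). Among those under the filter, Cxcr4, which also binds Cxcl12, averaged 20.9 over the 10 arrays, Cxcr2 12.1 and the brightest of 3 Ccr2 probe sets 25.4.

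**Figure D2:**
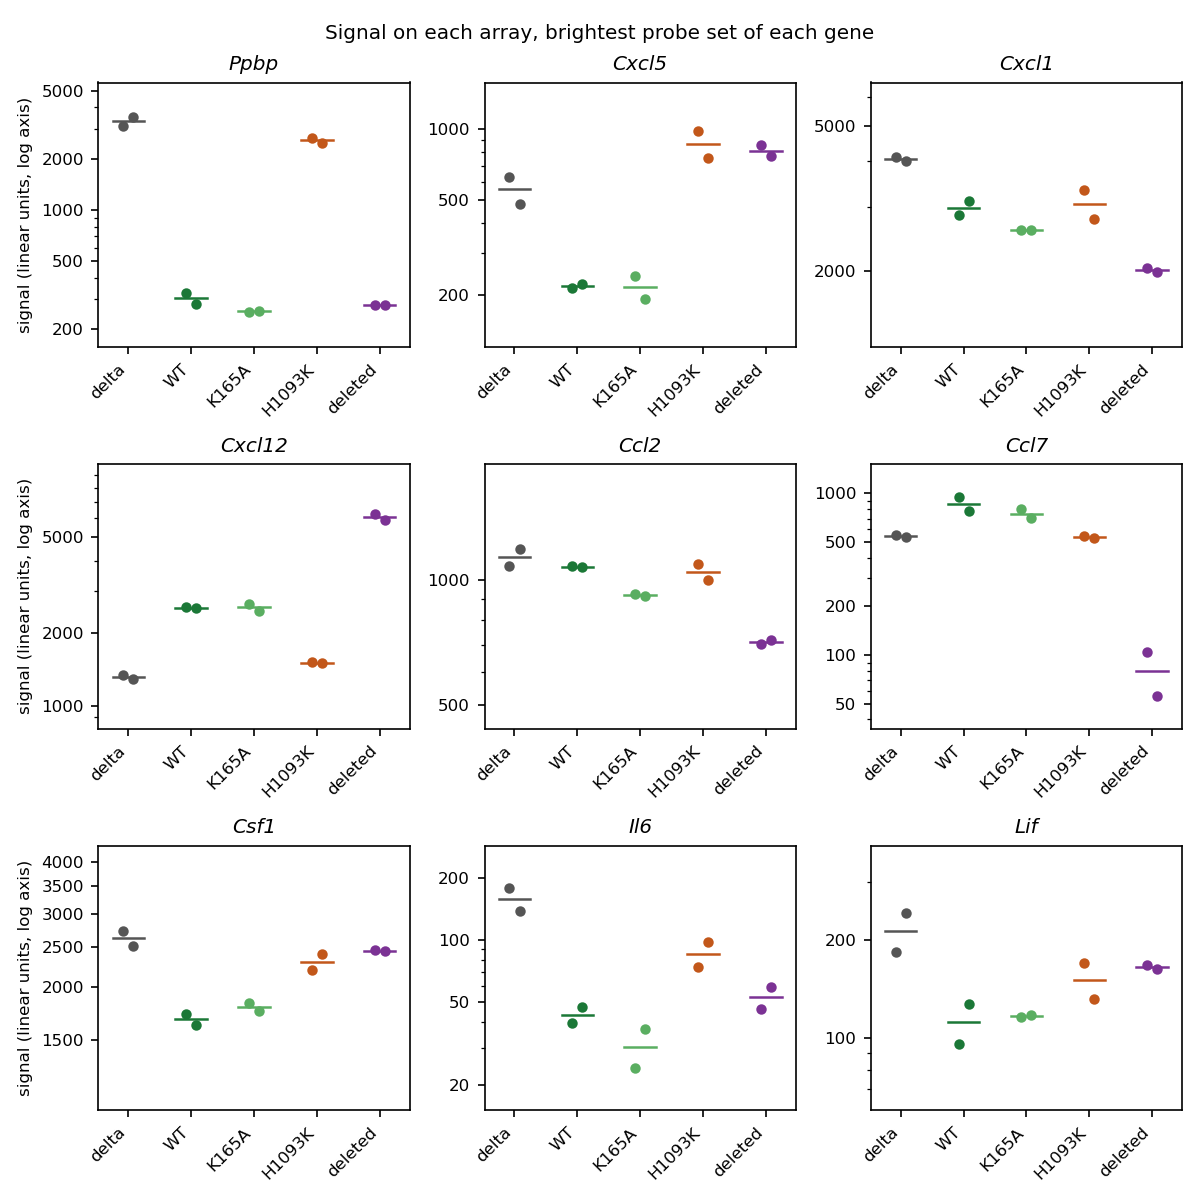
Signal on each of the 10 arrays (points, log axis, linear signal units) and group mean (lines) for the brightest probe set of each of the 9 genes. Ppbp is low in WT, K165A and deleted, Cxcl12 is highest in deleted (5894 and 6249), and Ccl7 is lowest there (56.2 and 104).

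The monocyte chemokines Ccl2 and Ccl7 set the arrays labelled deleted apart more than the G9a forms. Ccl7 read 557 and 537 in delta, 949 and 779.7 in WT, 797 and 702 in K165A, 548 and 528 in H1093K, and 104 and 56.2 in deleted. The WT and K165A arrays overlapped and lay above the other 3 groups, and delta and H1093K overlapped. Deleted was 8.21-fold below K165A (log2 difference -3.04, -3.49 to -2.59, limma adjusted p = 3.09e-06) and 5.95-fold below H1093K (adjusted p = 8.18e-06). K165A against H1093K gave 0.46 (0.01 to 0.92), which did not pass (adjusted p = 0.236) but did without the deleted pair (0.0428). H1093K lay 0.66 below WT (-1.11 to -0.21), with an adjusted p of 0.0813, of 0.0128 with the replicate block and of 0.00766 without the deleted pair. Against delta, K165A lay 0.44 higher (adjusted p = 0.210), and this passed without the deleted pair (0.0416).

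Ccl2 read 1081 and 1189 in delta, 1082 and 1074 in WT, 926 and 918 in K165A, 1094 and 1003 in H1093K, and 703 and 717 in deleted. It was 1.29-fold lower in deleted than in K165A (log2 difference -0.37, -0.54 to -0.19, limma adjusted p = 0.00530) and 1.46-fold lower than in H1093K (adjusted p = 4.53e-04). Delta, WT and H1093K overlapped. K165A lay 1.23-fold below delta (adjusted p = 0.0387), a call lost when any 1 array other than those of H1093K was left out (0.0514 to 0.217). Between K165A and H1093K the difference of -0.18 (-0.36 to -0.01) did not pass (adjusted p = 0.230). A further chemokine, Cx3cl1, whose membrane-bound form holds leukocytes, was 1.72-fold lower in K165A than in H1093K (adjusted p = 0.00140), with 670.4 and 729 in delta, 463 and 476 in WT, 378 and 447 in K165A, 687 and 747 in H1093K, and 288 and 306 in deleted.

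Csf1, the macrophage growth factor, was highest in delta and lowest in WT and K165A by each of its 4 probe sets. By the brightest it read 2729.5 and 2511 in delta, 1730.3 and 1626 in WT, 1831 and 1760.0 in K165A, 2199.6 and 2411 in H1093K, and 2456 and 2446 in deleted. None of these 5 groups overlapped. K165A was 1.45-fold below delta (log2 difference -0.54, -0.72 to -0.37, limma adjusted p = 0.00176) and 1.28-fold below H1093K (-0.36, -0.53 to -0.18, adjusted p = 0.0216). The second call was lost without H1093K replicate 2 (0.155), K165A replicate 1 (0.0705) or K165A replicate 2 (0.105). H1093K was 1.37-fold above WT (adjusted p = 0.00559), a call lost without H1093K replicate 2 (0.0549). Deleted lay 1.36-fold above K165A (adjusted p = 0.00182).

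The other 3 Csf1 probe sets lay 0.36 to 0.62 lower in K165A than in H1093K on the log2 scale. Their adjusted p by limma was 0.0383, 0.0234 and 0.0580. The first call was lost with median centring (0.0513), quantile normalization (0.0592) or only the arrays compared (0.144). The second was lost with only the arrays compared (0.0909). The third passed with the replicate block (4.93e-04), quantile normalization (0.04999) or only the arrays compared (0.0209). With arrays left out, the first ranged from -0.40 to -0.32 and the second from -0.76 to -0.41. H1093K covered 9.50% to 55.7% of the log2 distance from delta to WT by the 4 probe sets. They read 1 gene and are not replicates. In deleted against K165A these 3 gave adjusted p of 0.0534, 0.124 and 0.119, and the first and last passed with the replicate block (0.0330 and 0.00358). Csf1r, the receptor, averaged 149.5 over the arrays by its brightest probe set, with 162 ± 31.6 in delta and 149 ± 30.3 in WT (SD, n = 2 each).

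Il6, an inflammatory cytokine, was dim on all arrays, and its mean of 74.3 lay under the filter at 104. It read 178 and 138 in delta, 39.7 and 47.4 in WT, 24.1 and 37.0 in K165A, 73.8 and 97.9 in H1093K, and 46.6 and 59.4 in deleted. Both delta arrays were the highest, and WT and deleted overlapped. Without the filter, limma gave 3.76-fold less in K165A than in delta (adjusted p = 0.00309, where 5.94% of 22626 probe sets passed). K165A against H1093K gave a log2 difference of -1.13 (-1.74 to -0.53, adjusted p = 0.0509), which did not pass.

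Lif, a cytokine of the same family that binds Lifr and Il6st, read 184 and 242 in delta, 96.2 and 127 in WT, 116 and 118 in K165A, 169 and 132 in H1093K, and 167 and 163 in deleted. Both delta arrays were the highest, the WT and K165A arrays overlapped, and so did those of H1093K and deleted. K165A was 1.71-fold below delta (log2 difference -0.77, -1.21 to -0.34, limma adjusted p = 0.0294), a call lost without delta replicate 2 (0.182) or either K165A array (0.110 and 0.101). K165A against H1093K gave -0.32 (-0.75 to 0.11, adjusted p = 0.416). A second Lif probe set stayed between 2.27 and 34.2 on all arrays.

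Among the genes through which Il6 and Lif signal, Lifr, Socs3 and Jak1 were higher in K165A than in H1093K. Lifr, the Lif receptor, read 1218 and 1097 in delta, 2799 and 2592 in WT, 2804 and 2646 in K165A, 1683 and 1523 in H1093K, and 782 and 679.8 in deleted. K165A and WT overlapped, H1093K lay between them and delta, and deleted was lowest. K165A was 1.69-fold above H1093K (log2 difference 0.76, 0.55 to 0.97, limma adjusted p = 7.82e-04), and deleted was 3.68-fold below K165A (adjusted p = 5.41e-07). Socs3, a feedback inhibitor of the pathway, was 1.86-fold higher in K165A than in H1093K by its brightest probe set (limma adjusted p = 0.0306). That call was lost without H1093K replicate 2 or K165A replicate 1, with log2 differences of 0.633 and 0.626. Another Socs3 probe set read 1236 and 1268 in K165A against 612.7 and 691.9 in H1093K. A further one read 2285 and 1850 in K165A against 1288 and 997.1 in H1093K. The kinase Jak1 was 1.33-fold higher by its brightest probe set (limma adjusted p = 0.00981). That call was lost without H1093K replicate 1 or K165A replicate 2, with log2 differences of 0.367 and 0.355. By a dimmer Jak1 probe set the groups overlapped, at 1330 and 1845 in K165A against 1051 and 1378 in H1093K. They also overlapped by another, at 442.1 and 595.8 against 318.7 and 446.2. The shared chain Il6st read 2064 and 2180.0 in delta, 2574 and 2630.0 in WT, 2556 and 2527 in K165A, 1967 and 2282 in H1093K, and 1817 and 1799 in deleted. It was lower in deleted than in K165A (log2 difference -0.49, limma adjusted p = 0.00138). K165A against H1093K gave 0.26 (0.08 to 0.44), which did not pass (0.0916) but did with the replicate block (0.0351). Of the dimmer Il6st probe sets, 1 read 601.3 and 626.9 in K165A, 430 and 446.3 in WT and 380.4 and 305.6 in H1093K. The other read 1058 and 1200 in K165A, 1043 and 1088 in WT and 919.2 and 905.2 in H1093K.

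**Figure D3:**
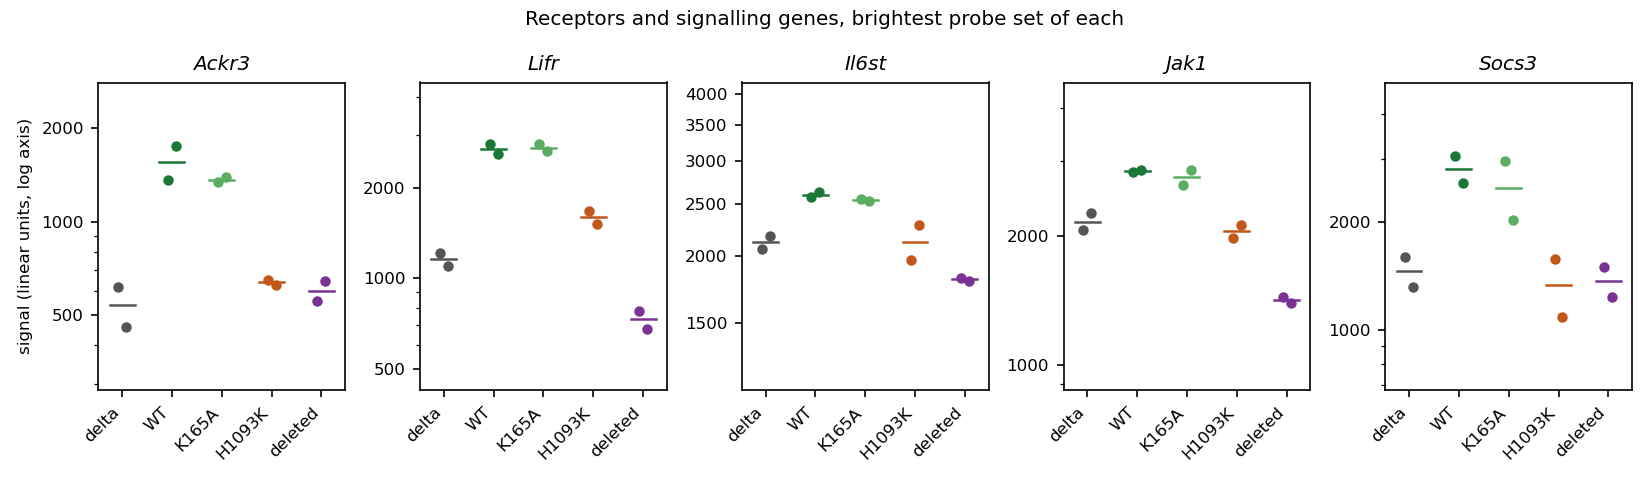
Signal on each array (points, log axis, linear signal units) and group mean (lines) for the Cxcl12 receptor Ackr3 and for 4 genes of Il6 and Lif signalling, brightest probe set each, in the 5 groups of 2 arrays. WT and K165A are high for Ackr3, Lifr and Socs3, and deleted is lowest for Lifr and Jak1.

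Over all members, 7 of 12 probe sets passed in K165A against H1093K (limma, Benjamini-Hochberg adjusted p under 0.05), 2 higher and 5 lower in K165A. Of all 13576 probe sets tested, 7.7% passed there, 3.66% higher and 4.04% lower. The 7 belong to Ppbp, Cxcl5, Cxcl12 and Csf1. The K165A and H1093K arrays did not overlap for 12 of 12, against 47.8% of all probe sets. The median log2 difference was -0.34 for the members and 0.00 for all probe sets. The count fell to 4 without H1093K replicate 2 or without K165A replicate 2, each time through the Csf1 probe sets. As 12 probe sets read 8 genes and were chosen with results of these arrays known, these counts are descriptions.

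The 5 tested genes that were not chosen for their pattern have 8 probe sets. By limma, K165A differed from WT in 0 of these 8, against 0% of all 13576. Counted by an unadjusted p under 0.05 they were 1 and 433. That 1 was Ccl2, with a difference of -0.22 (-0.40 to -0.05). The intervals of the brightest probe sets were -0.41 to 0.01 for Cxcl1, -0.08 to 0.27 for Csf1, -0.65 to 0.25 for Ccl7 and -0.36 to 0.50 for Lif. For the 3 chosen genes K165A lay from WT by -0.24 (Ppbp), -0.02 (Cxcl5) and 0.00 (Cxcl12, brighter probe set), described without a test. By the dimmer Cxcl12 probe set it lay -0.17 from WT. The K165A and WT arrays did not overlap for that probe set or for Ppbp, but did for Cxcl5 and the brighter Cxcl12 probe set.

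With H1093K set against delta, 0 of those 8 probe sets passed by limma, where 0.869% of all did. Of the 8, 5 had an unadjusted p under 0.05, as did 1616 of all 13576 probe sets. With the replicate block, Cxcl1 (adjusted p = 0.0307) and 1 Csf1 probe set (0.0315) were lower in H1093K. Of the 3 chosen genes, the H1093K mean lay 0.36 below delta for Ppbp, 0.63 above it for Cxcl5 and 0.19 above it for Cxcl12 on the log2 scale, and the arrays did not overlap for any of them, as for 40.7% of all probe sets. Set against WT, H1093K differed in 2 of the 8, both of Csf1 and higher, where 8.38% of all passed and 4.25% were higher. With the replicate block, Ccl7 and the other 2 Csf1 probe sets (adjusted p = 0.0311 and 0.0194) passed too. In K165A against delta, 7 of the 8 passed, all lower, where 11.6% of all probe sets passed and 6.47% were lower. Those 7 read 4 genes, and all 4 Csf1 probe sets were among them. Without the filter, the calls of Ccl2 (limma adjusted p = 0.052), Lif (0.063) and 1 Csf1 probe set (0.051) were lost. That Csf1 call was also lost without the trend (0.054), and its log2 difference ranged from -0.87 to -0.53 with arrays left out. These comparisons share the delta or the WT arrays with the one that chose the set.

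**Figure D4:**
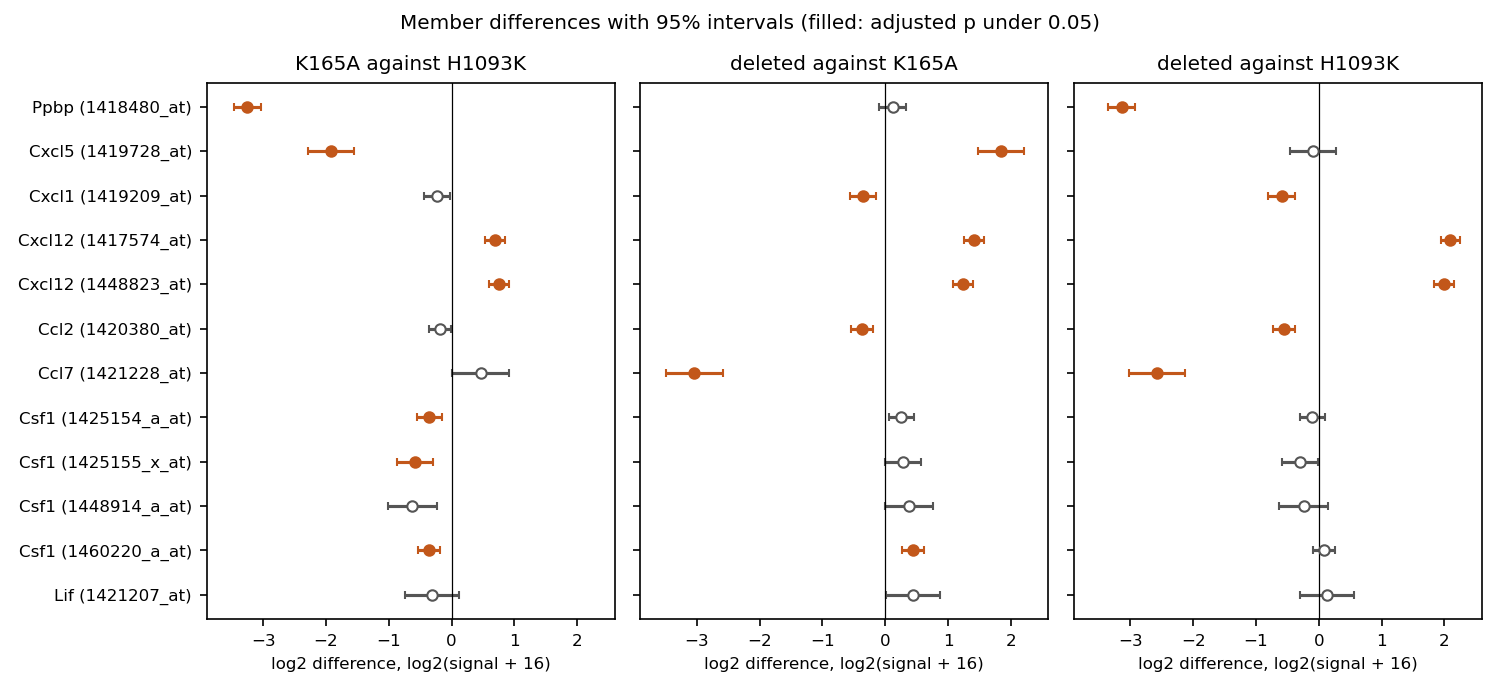
Log2 differences on the log2(signal + 16) scale with limma 95% intervals for the 12 member probe sets. The 3 comparisons hold no WT or delta arrays, but the spread was estimated over all arrays. Filled points passed an adjusted p of 0.05. Ppbp and Cxcl5 lie left of 0 and Cxcl12 right of it in K165A against H1093K, and Ccl7 lies at -3.04 in deleted against K165A.

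The arrays labelled deleted differed from K165A in 7 of 12 member probe sets (4 higher, 3 lower), where 32.4% of all passed, 15.6% higher and 16.8% lower. From H1093K they differed in 6 of 12 (2 higher, 4 lower), where 34.2% passed, 16.9% higher and 17.3% lower. In the latter comparison 1 further Csf1 probe set passed with the replicate block (0.0346). They matched neither group throughout: Ppbp was near the K165A level, Cxcl5 near the H1093K level, and Cxcl12 and Ccl7 lay outside both. Set beside delta without a test, deleted was 11.3-fold lower for Ppbp, 6.05-fold lower for Ccl7, 1.46-fold higher for Cxcl5 and 4.55-fold higher for Cxcl12.

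Further genes of the pathway were read in K165A against H1093K from 8 lists, with 1 probe set per gene, where 8.3% of 7761 genes passed by limma, 3.74% higher and 4.56% lower, and the median was -0.01. Of 9 CXC chemokines kept, 1 was higher and 3 lower, all named above, and the list median was -0.23. Of 6 CC and other chemokines, Cx3cl1 was lower and 5 did not pass (median -0.14). Of 14 genes of the IL-6 family and its signalling, 3 were higher and 11 did not pass (median 0.14), and 6 passed with the replicate block, Il6st among them. Of 3 colony-stimulating factors and receptors kept, Csf1 was lower and 2 did not pass (median 0.01). That count of 1 fell to 0 without H1093K replicate 2 or either K165A array. It rose to 2 without H1093K replicate 1, when Kitl, the ligand of Kit, passed (log2 difference 0.84, adjusted p = 0.0486, against 0.51 and 0.213 with all arrays). Of 14 NF-kB factors and inhibitors, 0 passed, 5 had an unadjusted p under 0.05, 3 passed with the replicate block, and the median was -0.18. Over all 13576 probe sets in this comparison, 2729 had an unadjusted p under 0.05. With the block, 1898 of all 13576 probe sets passed. That count is by probe set, and the share by gene with the block is not given here. The block counts of these lists thus have no matching background.

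Of 13 genes of the IL-1 and TNF families, 2 were lower (median -0.13). They were Il1rn, the natural inhibitor of the IL-1 receptor, at 1106 and 1210.0 in H1093K against 689.7 and 729 in K165A (1.62-fold, limma adjusted p = 6.97e-04), and the TNF-type receptor Tnfrsf12a (1.37-fold, 0.0352). The Tnfrsf12a call was lost without either H1093K array, K165A replicate 2 or either deleted array (0.0589 to 0.158), and with the replicate block 4 genes of the list passed. Of 10 other inflammatory NF-kB targets, 3 were lower and 1 higher (median -0.29). Tissue factor F3 was 1.72-fold lower (limma adjusted p = 0.00114), haptoglobin Hp 1.61-fold (0.0115) and the GTPase Gbp2 1.32-fold (0.0251). The pentraxin Ptx3 was 1.37-fold higher (0.0310). A dimmer Gbp2 probe set, given without a test, read 404.3 and 404.9 in K165A against 712.2 and 663.3 in H1093K. The Hp, Gbp2 and Ptx3 calls were each lost without at least 3 of the 4 arrays compared, taken 1 at a time (0.0525 to 0.192), and the list's count of 4 then fell to 1 or 2. The Ptx3 call was also lost without the deleted pair (0.0519).

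**Figure D5:**
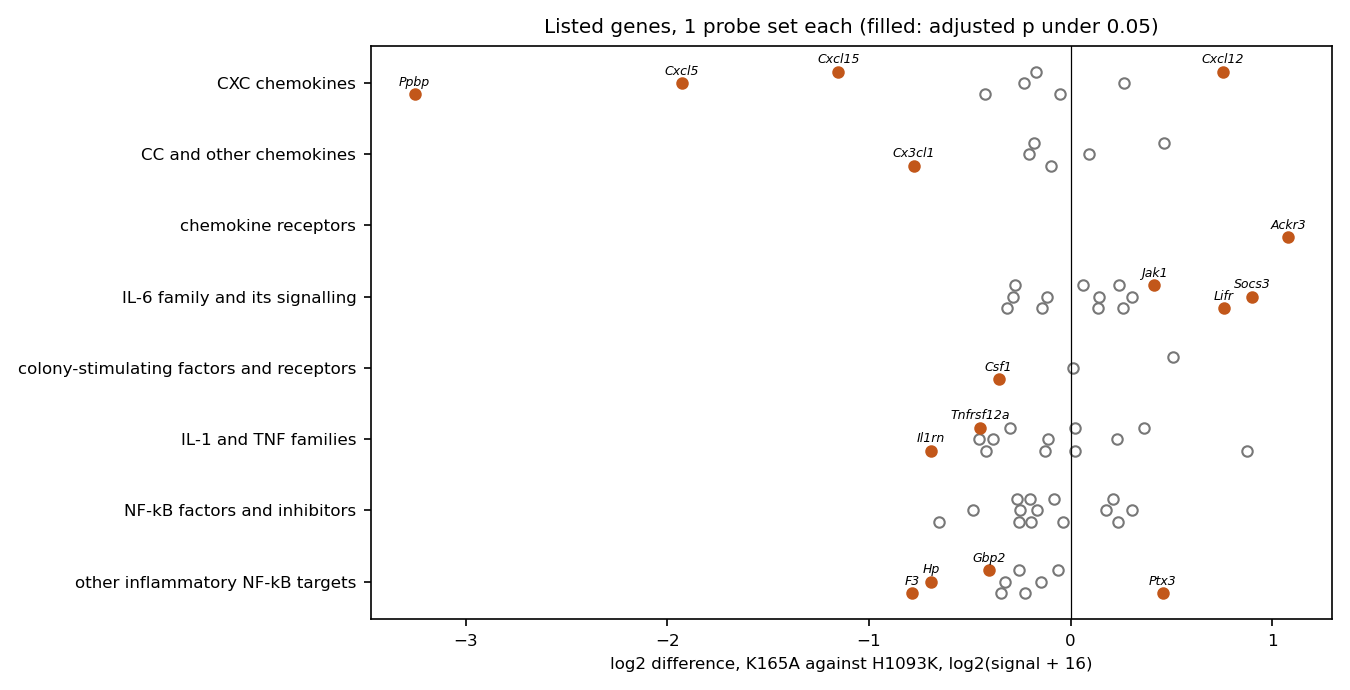
Log2 difference of K165A against H1093K on the log2(signal + 16) scale for each kept gene of the 8 lists, 1 probe set per gene. Filled and named points passed an adjusted p of 0.05 in limma, and Ppbp (-3.25) and Cxcl5 (-1.93) lie farthest from 0.

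By Pearson's r over the 10 arrays on the log2(signal + 16) scale, among 7760 other genes, the pattern of Ppbp was most like those of Cdh2 (0.989), Ankrd1 (0.988) and Pkp1 (0.986). Ankrd1, a stress-responsive nuclear protein known from muscle, averaged 3165 and 3155 in delta and H1093K against 840 (WT), 758 (K165A) and 658 (deleted). Cxcl5 was most like Cyp51 (0.984), Eno3 (0.979) and Prkg2 (0.978). Cyp51, an enzyme of cholesterol synthesis, averaged 1380.0 in H1093K and 1320.0 in deleted, 1117 in delta, 878 in WT and 818 in K165A. Cxcl12 was most like Aldh1a2 (0.993), Timp3 (0.990) and Plxdc2 (0.989). Timp3, an inhibitor of matrix proteases, averaged 5007 in deleted, 1153 and 1067 in WT and K165A, and 499 and 268 in H1093K and delta. Over the 8 arrays without deleted, other genes came first: Stmn2 (0.998), Pkp2 (0.997) and Selp (0.995) for Ppbp, Tuba4a (0.993), Msmo1 (0.992) and Stx3 (0.989) for Cxcl5, and Eomes (0.997), Sall1 (0.995) and Ahr (0.995) for Cxcl12. Arrays of a group share their label, so these values describe 5 groups at most and carry no test.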

How the data were processed

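The authors deposited signal intensities on a linear scale for 22690 probe sets on 10 arrays, made with GCOS 1.4 per the submitters' processing notes. Its background and scaling options are not given in the sources used here. The trimmed mean signal, without 2% of probe sets at each end, was 500.1 to 500.2 on every array, so no scaling was added. After 64 controls were left out, 20380 of 22626 probe sets had 1 gene in the platform annotation, with symbols updated through the RefSeq table. The arrays' number limits the precision.

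Signals were analysed as log2(signal + 16), so fold changes understate those of dim genes. Probe sets under the 40th percentile of mean signal (104) were left out. limma 3.58.1 in R 4.3.3 (lmFit with 1 mean per group over all arrays, eBayes with an intensity trend, 5 residual and 4.69 prior degrees of freedom) gave 8 comparisons, adjusted by Benjamini-Hochberg over 13576 probe sets. The script was tested on simulated data. Arrays of the same number in their titles deviated together in every pair of groups (correlations of 0.229 to 0.509), but the titles do not say what a number marks. The main fit, which gave every p-value not named otherwise, had no block for it. A fit with the replicate number as a block is given where it changes a call. Genes were named by a fixed rule: the 9 members, their receptors and locus neighbours, up to 6 passing genes per list, and the 3 genes of most similar pattern. A gene with several probe sets stands by the brightest. Members and lists were chosen with earlier results of these data known. An exact permutation test of 2 arrays against 2 cannot reach the threshold and was not used. Alternatives varied the pseudocount, filter, scaling, arrays, trend and block.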

Additional observations from a re-analysis of the deposited data

How the results depend on the processing

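Over 20 alternative fits, 57 of 87 tested differences stayed on the same side of the threshold, 30 crossed it in at least 1, and 0 of the called ones changed sign. The 87 cover the members and, chosen after seeing the data, the genes named from the lists in K165A against H1093K and 7 other differences of Il6st, Lifr, Ackr3, Cxcl15 and Kitl. Il6, tested without the filter, is not among them. In K165A against H1093K, the calls of Ppbp, Cxcl5, both Cxcl12 probe sets, Cxcl15, Ackr3 and Lifr held in all of them, with log2 differences of -3.33 to -3.04 for Ppbp, -2.11 to -1.73 for Cxcl5 and 0.71 to 0.80 for the brighter Cxcl12 probe set (highest adjusted p 1.73e-05, 0.00104 and 0.00295). The member count there ranged from 4 to 7 when arrays were left out 1 at a time, a fit in which the lone array is assumed to vary like the other groups. In H1093K against delta, 0 of the 8 probe sets of genes not chosen for their pattern passed, and the replicate block added Cxcl1 and 1 Csf1 probe set. Beside the calls named with it above, the block changed no other call among these 87. In the comparisons without WT or delta arrays, it moved no count over the 12 member probe sets by more than 1.5 times. It raised the calls over all probe sets from 1576 to 2719 in K165A against delta, from 118 to 471 in H1093K against delta, from 1138 to 1997 in H1093K against WT and from 1046 to 1898 in K165A against H1093K. With arrays left out these counts ranged from 859 to 1403, 7 to 93, 572 to 1080 and 575 to 992. With only the arrays compared, K165A against delta gave 832 and H1093K against delta 11. H1093K against delta also gave 60 without the filter, 59 without the trend and 69 without the deleted pair. The causes were not tested. Without the filter or the trend, 1 gene of the IL-1 and TNF list passed in place of 2. Dim probe sets, Il6 among them, limit what can be read.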
